A study of Mus musculus with 2 samples.

Results

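The cells described here were luminal epithelial barcodes of the mouse endometrium that carried RNA of Ptpn22, Bcl2l15, Arhgef38, Muc4 and Padi4. They were 199 of the 7908 cell barcodes in the series, 103 from an Erbb3 f/f library and 96 from an Erbb3 d/d library. A barcode was kept when at most 10% of its unique molecular identifiers (UMIs, the counted RNA molecules) were mitochondrial. It also had to hold more UMIs of the epithelial genes Epcam, Cdh1, Cldn3, Cldn7, Elf3 and Esrp1 than of the stromal genes Col1a1, Col1a2, Col3a1, Pdgfra and Hoxd10. The 5 genes together then had to give at least 2 UMIs, and more than any of 4 other sets. Those sets were the Lrp2 set (Slc5a11, Lrp2, Arvcf, Slc51a, Jam2), the Ltf set (Clca3b, Clca3a2, Ecm1, Ppbp, Ltf), the Syn2 set (Syn2, Slc2a3, Gulo, Rdh1, Dab1) and the cycling set (Top2a, Tpx2, Kif11, Prc1, Birc5). The high level of the 5 genes in them is a description and not a finding. The members were selected on the UMI counts of these gene sets.

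The study profiled single fixed endometrial cells from mice on day 3 of pregnancy with a probe-based 10x Genomics Flex assay. The control was Erbb3 f/f, in which both Erbb3 alleles carry sites for deletion, and Erbb3 d/d was described by the submitters as a deletion of Erbb3 in the stroma. The driver of the deletion, the ages, and the number of mice behind each library are not given in the sources used here. Each genotype had 1 library, so genotype and library cannot be told apart, cells are not replicates, and no p-value was computed. Every interval below is a 95% interval for counting error only and says nothing about the spread between mice.

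Luminal epithelium lines the uterine lumen and is the first maternal layer that an embryo meets. On the days before attachment, estrogen from the ovary drives these cells to divide and rising progesterone stops that division, in part through factors made by the underlying stroma. Erbb3 is a receptor of the epidermal growth factor receptor family with a weak kinase of its own, and it signals in pairs with other members such as Erbb2. The 5 genes belong to unrelated families. Ptpn22 is a tyrosine phosphatase best known for damping antigen receptor signals in lymphocytes, Bcl2l15 is a member of the Bcl2 family of apoptosis regulators, Arhgef38 is a guanine nucleotide exchange factor, Muc4 is a membrane mucin that can bind Erbb2, and Padi4 converts arginine to citrulline and is best known from neutrophils.

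Depth was low. The libraries held 5783 f/f and 2125 d/d barcodes with 6819591 and 2866862 UMIs, at medians of 821 and 791 UMIs a barcode. After the mitochondrial limit, 2191 f/f and 807 d/d barcodes were epithelial and 2426 and 659 were stromal by the same 2 gene sums. The gated barcodes had medians of 855 and 814 UMIs, near those of the other epithelial barcodes (885 and 826), and held 103366 and 94426 UMIs in all. No full barcode occurred in both libraries, but the first 16 bases of 158 did, among them 3 gated f/f and 9 gated d/d barcodes.

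The targeted gene gave few molecules in the gated barcodes. Erbb3 had 4 UMIs in f/f against 7 in d/d, or 38.7 and 74.1 CPM (UMIs per 1000000 UMIs of the group), a log2 ratio of 0.94 (interval -1.04 to 3.16) that covered no difference. The other epithelial barcodes went from 79.5 to 43.7 CPM, and stromal barcodes from 23.9 to 10.4 CPM. Whether the Erbb3 probe lies inside the deleted part is not given in the sources used here, so these values do not check the deletion.

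The 5 genes did not contribute equally. Padi4 led with 108 UMIs in f/f against 91 in d/d, followed by Arhgef38 with 107 and 84. Ptpn22 gave 57 and 39, Bcl2l15 gave 44 and 48, and Muc4 was lowest in both libraries with 25 and 36. Muc4 molecules occurred in 19.4% of gated f/f against 29.2% of gated d/d barcodes, against 68.0% and 55.2% for Padi4. Muc4 and Ptpn22, the genes of the working name, were thus carried by a minority of the cells, and Padi4 and Arhgef38 were the leading genes of the gate.

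Bcl2l15 and Ptpn22 are neighbours in the genome. In the RefSeq annotation of GRCm38.p6, Bcl2l15 spans chr3:103831036-103854618 and Ptpn22 spans chr3:103856575-103912252, with a gap of 1956 bases and 0 protein-coding genes between them. Arhgef38 lies on the same chromosome at chr3:133112278-133234949, Padi4 at chr4:140745508-140774239 and Muc4 at chr16:32735886-32782391. The deposited matrices carry no coordinates, so these positions come from the annotation alone. The RefSeq promoter table held windows for 7 starts of the 5 genes, and those of Ptpn22 and Bcl2l15 lie inside the spans above, so the outermost ends that set the gap are not among them. The 250 bases before 1 such start of each gene are printed 5′ to 3′ on the gene's strand, to show what the promoters of genes chosen together do and do not share. Capitals mark AGGTCA, the core letters of a site for estrogen and related nuclear receptors, or AGAACA, those of a site for progesterone and glucocorticoid receptors, where either occurs on either strand (TGACCT and TGTTCT are their reverse complements).
Ptpn22: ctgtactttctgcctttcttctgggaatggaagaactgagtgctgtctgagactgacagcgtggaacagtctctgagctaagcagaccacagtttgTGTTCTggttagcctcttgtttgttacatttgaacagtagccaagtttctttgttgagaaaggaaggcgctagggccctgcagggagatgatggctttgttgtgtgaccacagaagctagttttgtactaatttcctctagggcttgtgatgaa
Bcl2l15: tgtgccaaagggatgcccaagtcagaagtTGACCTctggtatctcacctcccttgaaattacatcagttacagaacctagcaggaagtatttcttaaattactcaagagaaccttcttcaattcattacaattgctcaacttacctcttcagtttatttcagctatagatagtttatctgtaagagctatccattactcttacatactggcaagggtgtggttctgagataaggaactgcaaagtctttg
Arhgef38: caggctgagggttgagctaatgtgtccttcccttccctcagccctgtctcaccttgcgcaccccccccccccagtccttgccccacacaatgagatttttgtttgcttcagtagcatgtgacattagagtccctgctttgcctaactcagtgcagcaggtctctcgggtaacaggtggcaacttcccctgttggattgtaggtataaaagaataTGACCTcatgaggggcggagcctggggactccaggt
Muc4: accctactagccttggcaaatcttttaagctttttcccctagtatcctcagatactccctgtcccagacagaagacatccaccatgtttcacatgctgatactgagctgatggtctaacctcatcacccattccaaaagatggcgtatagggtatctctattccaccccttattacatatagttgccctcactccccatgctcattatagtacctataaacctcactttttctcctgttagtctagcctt
Padi4: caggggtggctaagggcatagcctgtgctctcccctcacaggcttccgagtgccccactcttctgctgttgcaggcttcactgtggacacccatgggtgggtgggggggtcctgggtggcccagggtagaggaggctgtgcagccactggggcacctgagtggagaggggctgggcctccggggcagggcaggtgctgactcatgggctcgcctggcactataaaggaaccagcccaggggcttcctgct

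These windows were chr3:103860027-103860276 (plus strand) for Ptpn22, chr3:103832446-103832695 (plus) for Bcl2l15, chr3:133234950-133235199 (minus) for Arhgef38, chr16:32735636-32735885 (plus) for Muc4 and chr4:140774204-140774453 (minus) for Padi4. AGGTCA stood 221 bases before the Bcl2l15 start and 36 bases before the Arhgef38 start, and in 3 of the 7 windows in all, since the second Arhgef38 window overlaps the first. It is held by 14.02% of all 32851 promoter windows of that length. AGAACA stood 154 bases before 1 Ptpn22 start, in 1 of 7 windows, against 16.1% of all windows. TATAAA, the TATA box core, was in 4 of 7 windows (Arhgef38, Muc4 and Padi4) against 12.4% of all, GGGCGG in 2 of 7 (both of Arhgef38) against 32.7%, and AGGAAG, an Ets family core, in 4 of 7 (Bcl2l15, Padi4 and Ptpn22) against 29.5%, each searched on both strands. No motif among these was in the windows of all 5 genes. A match describes letters in a window and is not evidence of binding.

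Most gated cells were identified by few molecules. The median sum of the 5 genes was 3 UMIs in f/f against 2 in d/d, with maxima of 15 and 10. A sum of exactly 2, the lowest allowed, was found in 38 f/f and 49 d/d barcodes. More than 1 of the 5 genes was seen in 83 of the 103 f/f barcodes (80.6%) and 75 of the 96 d/d barcodes (78.1%). The lead over the next set was 1 UMI in 40 and 38 barcodes. Just outside the threshold, 32 f/f and 50 d/d epithelial barcodes had a sum of 1 that was above every other set.

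A measure that the gate did not use came from leaving each gene out in turn. Barcodes were gated on the other 4 genes, and the level of the left-out gene was then read. In f/f, Ptpn22 stood at 342 CPM in barcodes so gated against 113 CPM in the remaining epithelium, a log2 ratio of 1.60 (interval 0.99 to 2.16). Bcl2l15 was higher by 1.53 (0.80 to 2.19), Padi4 by 1.39 (0.87 to 1.86) and Arhgef38 by 1.36 (0.80 to 1.88), whereas the interval of Muc4 at 0.96 (-0.02 to 1.81) reached 0. Since the 5 genes were chosen together with results of these data known, these ratios describe how tightly they go together and are no independent support for the group.

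In d/d the separation was narrower for the 2 leading genes. Ptpn22 was at 256 against 114 CPM, a log2 ratio of 1.17 (0.40 to 1.88), Bcl2l15 at 0.99 (0.08 to 1.81) and Muc4 at 0.98 (0.15 to 1.74). Arhgef38 stood at 442 CPM in barcodes gated without it and 311 CPM in the remaining epithelium, or 0.51 (-0.11 to 1.08). Padi4 stood at 388 and 329 CPM, or 0.24 (-0.47 to 0.87). The intervals of the last 2 genes covered 0, and the level outside the gate was higher in d/d than in f/f for both (311 against 203 CPM for Arhgef38 and 329 against 248 CPM for Padi4). Stromal barcodes held all 5 genes at lower levels, from 13.9 to 57.8 CPM in f/f and from 45.9 to 109 CPM in d/d.

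**Figure D1:**
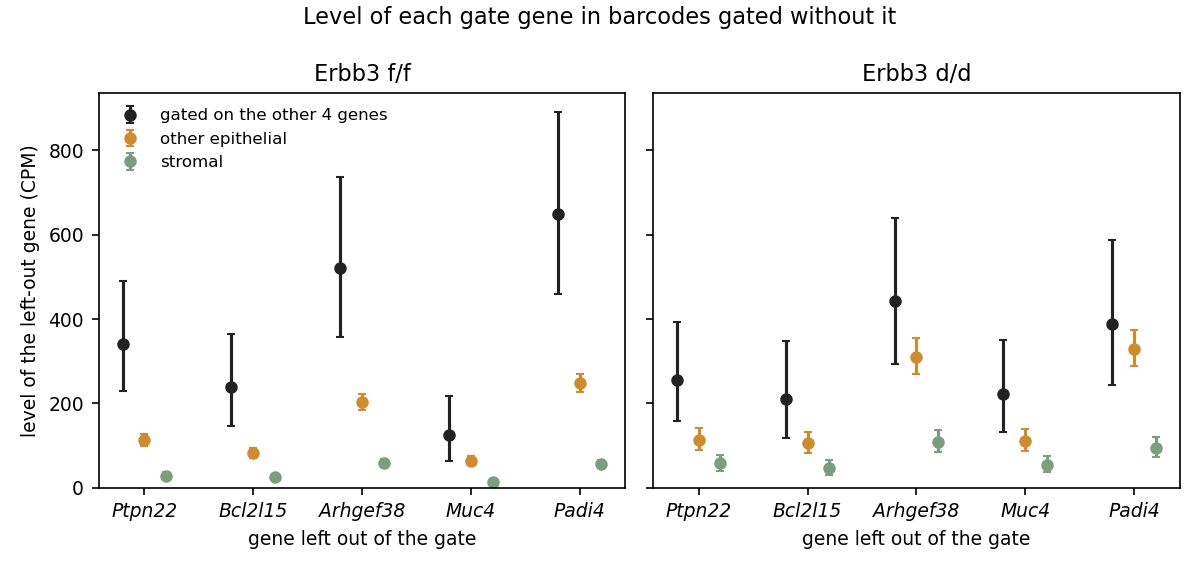
Level of each gate gene (CPM, linear axis from 0) in epithelial barcodes gated on the other 4 genes, in the remaining epithelial barcodes and in stromal barcodes, for each library; points are summed levels and bars exact 95% Poisson intervals. In f/f the gated points stand apart for all genes but Muc4, and in d/d the Padi4 points of 388 and 329 CPM overlap.

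The same genes were expressed outside the gate. Gated barcodes held 19.9% of all epithelial UMIs of the 5 genes in f/f against 38.4% in d/d. Barcodes led by the Lrp2 set carried the 5 genes at 660 CPM in f/f against 712 CPM in d/d, and those led by the cycling set at 661 and 813 CPM. The f/f barcodes led by the Syn2 set were lower at 247 CPM, with Ptpn22 at 15.7 CPM and Bcl2l15 at 3.92 CPM. These 2 values lay below those of f/f stromal barcodes (29.1 and 25.5 CPM), and in the 16 d/d barcodes led by the Syn2 set Muc4 and Padi4 had 0 UMIs. Those counts of 0 allow up to 185 CPM, so they do not show absence. In f/f barcodes led by the Syn2 set all 5 genes were found, with Arhgef38 at 157 CPM beside 160 CPM in those led by the Lrp2 set. The few barcodes led by the Ltf set (28 in f/f and 21 in d/d) held the 5 genes at 784 and 534 CPM. Outside the gate the 5 genes thus occurred with the Lrp2, Ltf and cycling sets, and at a lower summed level with the Syn2 set in f/f.

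Cell type markers that played no part in the rule placed the gated barcodes in the luminal epithelium. All 10 epithelial markers were detected in both libraries, led by the keratin Krt19 at 919 CPM in f/f against 995 CPM in d/d, and their summed level was 3328 and 3675 CPM against 955 and 1314 CPM in stromal barcodes. The 7 luminal markers summed to 3212 and 2849 CPM, of which Calb1, a calcium-binding protein of luminal cells, made up 1770 and 1557 CPM, and Msx1, a homeobox factor, 851 and 858 CPM. The 8 glandular markers summed to only 106 and 84.7 CPM, and Prss28, Prss29 and Spink1 were at 0 in both libraries. Foxa2, the defining factor of uterine glands, had 1 UMI in each library.

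Because Ptpn22 and Padi4 are best known from blood cells, markers of those cells were read in the same barcodes. All 7 neutrophil markers were at 0 UMIs in both libraries, which allows up to 29.0 and 31.8 CPM. Of the 8 T and NK cell markers, Cd3e, Cd3d, Cd3g, Cd247 and Nkg7 were at 0 in both, and the list summed to 5 and 8 UMIs, the 8 in d/d all from Lck. Myeloid markers gave 5 and 3 UMIs, and B and plasma cell markers 6 and 10, mostly of the immunoglobulin gene Igha (6 and 9). Endothelial markers gave 2 and 1 UMIs, mesothelial markers 4 and 5, smooth muscle and pericyte markers 6 and 6, and ciliated cell markers 2 and 1. Stromal markers summed to 503 and 201 CPM, beside 3654 and 3120 CPM in stromal barcodes, and Nr2f2 was the most abundant of them in both libraries with 24 and 9 UMIs. Thus no UMI of the neutrophil list or of the Cd3 genes was seen, while Lck (2 and 8 UMIs) and, in f/f, Cd2 (2 UMIs) were. The other epithelium held Lck too, at 60.3 and 52.7 CPM. The neutrophil limits lie above the level of that list in the other epithelium (6.40 and 4.52 CPM), so the counts of 0 cannot set the gated barcodes apart from it. A low stromal signal was higher in f/f.

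**Figure D2:**
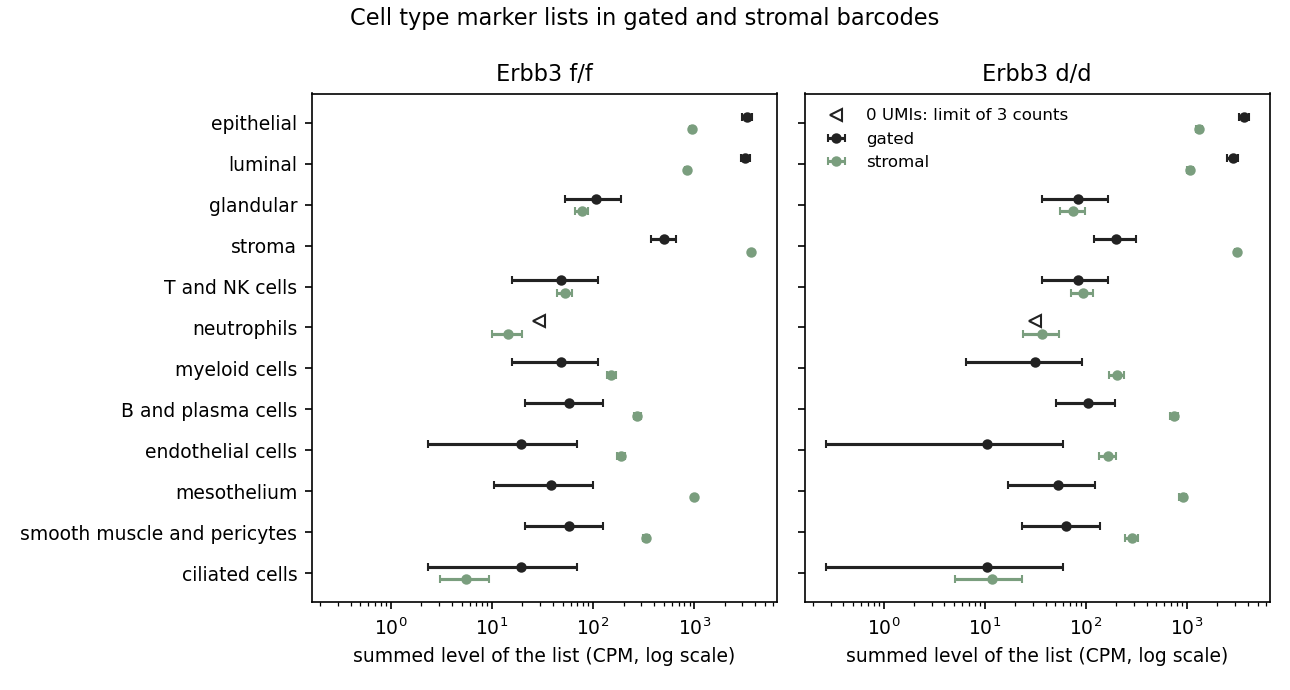
Summed level of 12 cell type marker lists (CPM, log axis) in gated and stromal barcodes of each library, with exact 95% Poisson intervals; open triangles give the limit of 3 counts where a list had 0 UMIs. Epithelial and luminal markers stand between 2849 and 3675 CPM in gated barcodes, and neutrophil markers are at 0 in both libraries.

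The share of epithelial barcodes that passed the whole rule was 4.70% in f/f (103 of 2191, interval 3.85% to 5.67%) and 11.9% in d/d (96 of 807, 9.74% to 14.3%), 7.19 percentage points apart (4.83 to 9.77). After each barcode was thinned to 500 UMIs before gating, the shares were 4.09% and 8.09%. The gap was smaller without the comparison with the other sets. With a sum of at least 2 UMIs of the 5 genes and no such comparison, 18.5% of f/f (406 barcodes) against 23.3% of d/d (188) passed, 4.77 points apart (1.43 to 8.23). The whole rule kept 25.4% of those 406 and 51.1% of those 188.

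The barcodes removed by that comparison differed between libraries. Of the 303 removed in f/f, 270 (89.1%) had an Lrp2-set sum at or above that of the 5 genes, against 16 of 92 (17.4%) in d/d. A cycling-set sum at or above it was found in 68 (22.4%) of the removed f/f barcodes and 79 (85.9%) of the removed d/d barcodes. Both sets differed across the whole epithelium, where the Lrp2 set led in 55.0% of the f/f barcodes against 8.43% of d/d barcodes and the cycling set in 7.99% and 35.6%. Stromal barcodes put through the same test of the 5 genes passed at 0.989% in f/f (24 of 2426) and 4.55% in d/d (30 of 659). The share was thus higher in d/d among stromal barcodes too. How far RNA from other cells sets either share was not tested.

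**Figure D3:**
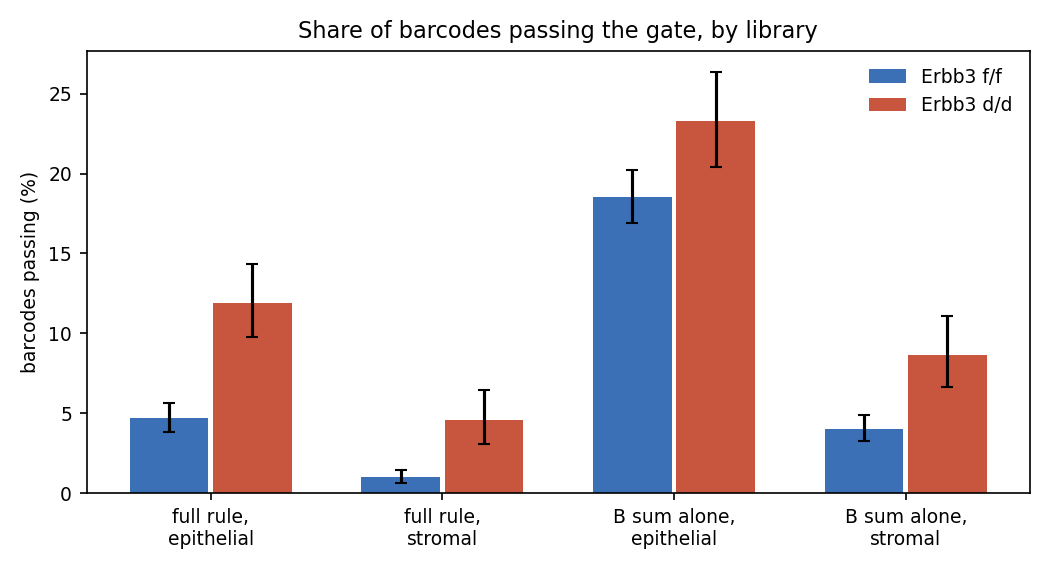
Share of barcodes (%) passing the full rule or only the minimum sum of 2 UMIs of the 5 genes (labelled B sum), among epithelial and stromal barcodes of each library, with exact 95% binomial intervals. The epithelial shares are 4.70% and 11.9% under the full rule and 18.5% and 23.3% under the sum alone.

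Levels of the 5 genes over all epithelial barcodes do not depend on the gate. Muc4 went from 66.8 CPM in f/f to 124 CPM in d/d, a log2 ratio of 0.89 (0.51 to 1.27), and Arhgef38 from 211 to 322 CPM, a ratio of 0.61 (0.38 to 0.83). Padi4 was at 258 and 334 CPM (0.37, 0.15 to 0.58) and Bcl2l15 at 88.6 and 116 CPM (0.39, 0.01 to 0.76), while Ptpn22 was at 121 and 129 CPM (0.09, -0.26 to 0.43). All 5 together stood at 746 and 1024 CPM, a log2 ratio of 0.46. In stromal barcodes the 5 together were at 182 and 362 CPM, a larger ratio of 0.99 (0.76 to 1.22) at a lower level.

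Few genes outside the rule set the gated barcodes apart from the other epithelial barcodes. Of 4447 genes with at least 50 UMIs in each library, 9 (0.202%) were at least 2-fold higher in the gated barcodes of both libraries and 44 (0.989%) at least 2-fold lower. Complement C3, a secreted protein of innate immunity that estrogen induces in uterine epithelium, was highest. It had 24 UMIs in gated f/f barcodes and 30 in gated d/d barcodes, or 232 and 318 CPM, against 47.5 and 108 CPM in the other epithelium, log2 ratios of 2.29 (1.58 to 2.94) and 1.55 (0.89 to 2.18). Stromal barcodes held C3 at 194 and 247 CPM, close to the gated level. Without the barcodes whose first 16 bases occur in both libraries, 3 genes instead of 9 were higher.

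Genes of several other roles were higher too. Fblim1, an adaptor at sites where actin meets the membrane, was at 184 against 69.5 CPM in f/f and 169 against 69.3 CPM in d/d, log2 ratios of 1.40 and 1.29. Rhpn2 was higher by 1.28 and 1.31, and Osbpl3, a lipid-binding protein related to oxysterol-binding protein, by 1.29 and 1.09. The lactate dehydrogenase subunit Ldhb was higher by 1.60 and 1.09, and Rnf180, a ubiquitin ligase that fell just short of 2-fold in f/f, by 0.98 and 1.58. For all 5 of these genes the intervals lay above 0 in both libraries. Against barcodes led by the Lrp2 set alone they were higher too, least so Rhpn2 in d/d (0.47). Against the few barcodes led by the Ltf set, Osbpl3 (-1.37) and Rhpn2 (-0.62) were lower in f/f and Rnf180 (-0.43) in d/d. Fblim1 and Ldhb were higher there in both libraries.

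The remaining genes of the rule for naming lay closer to the limit of counting. Nol9 and Gnl2, which act in the making of ribosomes, were higher by 1.07 and 1.26 and by 1.05 and 1.08. Macc1 (1.17 and 1.04), Fyb2 (1.32 and 1.01) and Nmd3, an export factor of the large ribosomal subunit (1.09 and 0.91), had d/d intervals that reached below 0. Grb10, an adaptor that damps insulin receptor signals, was higher by 1.02 and 0.90. These genes were seen in 8 to 22 UMIs per library in the gated barcodes. Against barcodes led by the Lrp2 set in d/d, Nol9 stood at 0.58, Gnl2 at 0.35 and Fyb2 and Nmd3 at 0.13 each. Macc1 (2.94) and Grb10 (1.81) were further apart there, but Macc1 was lower than in f/f barcodes led by the Ltf set (-0.32).

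The rule turns away barcodes led by the cycling set, and several of the lowest genes act in DNA replication and division. Brca1, a DNA repair gene, had 1 UMI in gated f/f and 2 in gated d/d barcodes, log2 ratios of -2.38 (-7.69 to 0.13) and -2.31 (-5.39 to -0.41). Prim1, a DNA primase subunit, was at -2.02 (-7.34 to 0.49) and -2.07 (-5.15 to -0.15) from 1 and 2 UMIs. Cbs, which makes cystathionine from homocysteine, had 2 and 7 UMIs at -2.62 (-5.67 to -0.75) and -1.43 (-2.78 to -0.35). Arhgap19, Mphosph9, Ensa, Efcab11 and Ccdc18 completed the lowest 8 with 1 to 3 UMIs each. A gene with 0 UMIs in gated barcodes was set at 3 counts, and got no direction where that bound lay above the reference. Such genes could rank as less low than these 8, and the counts of genes called lower can leave them out. Of the 25 proliferation genes counted, 0 were 2-fold higher and 4 were 2-fold lower in both libraries, beside 0.202% and 0.989% of all counted genes. The list's medians of -1.04 and -0.73 stood beside 0.00 and -0.01 over all counted genes.

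When barcodes led by the cycling set were taken out of the comparison, fewer genes could be counted and fewer differed. Of 2592 counted genes, 3 (0.116%) were higher and 7 (0.27%) lower in both libraries. Some genes called before kept their fold but no longer had 50 UMIs in each library. C3 had ratios of 2.36 and 1.49 and Fblim1 of 1.36 and 1.35, and the smaller of both ratios was 1.39 for Ldhb, 1.29 for Osbpl3, 1.13 for Macc1, 1.11 for Rhpn2 and 1.08 for Nol9. Against all other epithelial barcodes, 0.202% of all counted genes were higher in both libraries and 0.989% lower. There the estrogen-response list had 1 of 7 counted members higher in both libraries (C3). The progesterone-response list had 1 of 8 lower (Zbtb16, a transcription factor, from 7 and 2 UMIs). The ratios of Zbtb16 were -1.06 with an interval of -2.39 to -0.00 and -2.41 with one of -5.49 to -0.51. Zbtb16 stood at 67.7 and 21.2 CPM in gated barcodes and higher in stromal barcodes, at 269.7 and 205.6 CPM. The lists for steroid receptors (9 counted), mucins (5), the Bcl2 family (7), ion transport (6), junctions (19) and signals to the stroma (4) had 0, numbers too small to set beside the shares over all genes.

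Within the gated barcodes, d/d was then set against f/f. Among the 182 genes that reached 100 UMIs when both libraries were summed, 4 (2.2%) were at least 2-fold higher in d/d and 8 (4.4%) at least 2-fold lower. As many genes were above as below a ratio of 1 (91 and 91), and the median log2 ratio was -0.00. The interval lay above 0 for 24 genes and below 0 for 27. For 146 of the 182 the other epithelial barcodes, which are different cells of the same libraries, had the same direction.

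Lbp was the highest of them. This gene encodes lipopolysaccharide-binding protein, which passes bacterial lipid to innate receptors. It had 71 UMIs in 45 of 103 gated f/f barcodes and 194 UMIs in 65 of 96 gated d/d barcodes, or 687 and 2055 CPM, a log2 ratio of 1.58 (1.18 to 1.99). In the other epithelium Lbp was at 926 and 1709 CPM, a ratio of 0.88 (0.78 to 0.99). Among barcodes with 2 UMIs of the 5 genes and no comparison with other sets it was 1.26.

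The next 3 genes past 2-fold had lower counts. Plat, the tissue plasminogen activator, went from 35 to 71 UMIs (339 to 752 CPM), a log2 ratio of 1.15 (0.55 to 1.78). Hjurp, the chaperone that loads the centromeric histone, went from 56 to 106 UMIs (1.05, 0.57 to 1.54), and Uhrf2, a ubiquitin ligase that reads modified DNA, from 38 to 70 UMIs (1.01, 0.42 to 1.62). The ratios of Plat, Hjurp and Uhrf2 in the other epithelium were 0.67, 0.80 and 0.63, in the same direction.

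The other named genes with more RNA in d/d lay between 0.80 and 0.99. Gstm7, a glutathione transferase, stood at 0.99, Auts2 at 0.93 and Vegfa, the vascular growth factor, at 0.92 (67 to 116 UMIs). Dnm2, the dynamin of endocytosis, was at 0.83 and the amyloid precursor gene App at 0.82, beside Khdc4 (0.82), the ribosome assembly gene Kri1 (0.81) and Cdc42bpb (0.80), a kinase that acts with Cdc42. All these intervals lay above 0. Vegfa and Dnm2 had ratios of 0.35 and 0.09 in the other epithelium, whereas Auts2 stood at 1.06 there and App at 612 CPM in f/f against 1224 CPM in d/d.

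Cndp2, a dipeptidase of the cytosol, was lowest in d/d. It had 99 UMIs in 56 gated f/f barcodes and 30 UMIs in 25 gated d/d barcodes, or 958 and 318 CPM, a log2 ratio of -1.59 (-2.23 to -0.99), against -0.43 (-0.60 to -0.27) in the other epithelium. Hdc, which makes histamine from histidine, followed with 182 and 69 UMIs (1761 and 731 CPM), a ratio of -1.27 (-1.69 to -0.86). Gata2, a transcription factor that acts with the progesterone receptor in uterine epithelium, had 133 and 52 UMIs (1287 and 551 CPM), a ratio of -1.22 (-1.72 to -0.75). Pfkfb3, a regulator of glycolysis, went from 141 to 55 UMIs, a ratio of -1.23 (-1.70 to -0.77). In the other epithelium Hdc, Gata2 and Pfkfb3 were lower in d/d as well, at -1.05, -0.93 and -0.85.

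The remaining low genes included enzymes of sugar and choline metabolism. Dcxr, a reductase of sugars and dicarbonyls, stood at -1.15 (126 and 52 UMIs), Gpcpd1, which frees choline from glycerophosphocholine, at -1.04 (81 and 36 UMIs) and Chdh, the choline dehydrogenase, at -0.98 (78 and 36 UMIs). Entrep1 (-1.17) and the splicing regulator Hnrnpll (-1.14) were also past 2-fold. Atp1b1, the beta subunit of the sodium pump, went from 233 to 116 UMIs (-0.88), Stx18, a membrane fusion protein of the endoplasmic reticulum, from 179 to 89 UMIs (-0.88) and Il17rb, a receptor of interleukin 25, from 109 to 56 UMIs (-0.83). In the other epithelium these 8 genes had ratios from -1.43 to -0.40, all lower in d/d.

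**Figure D4:**
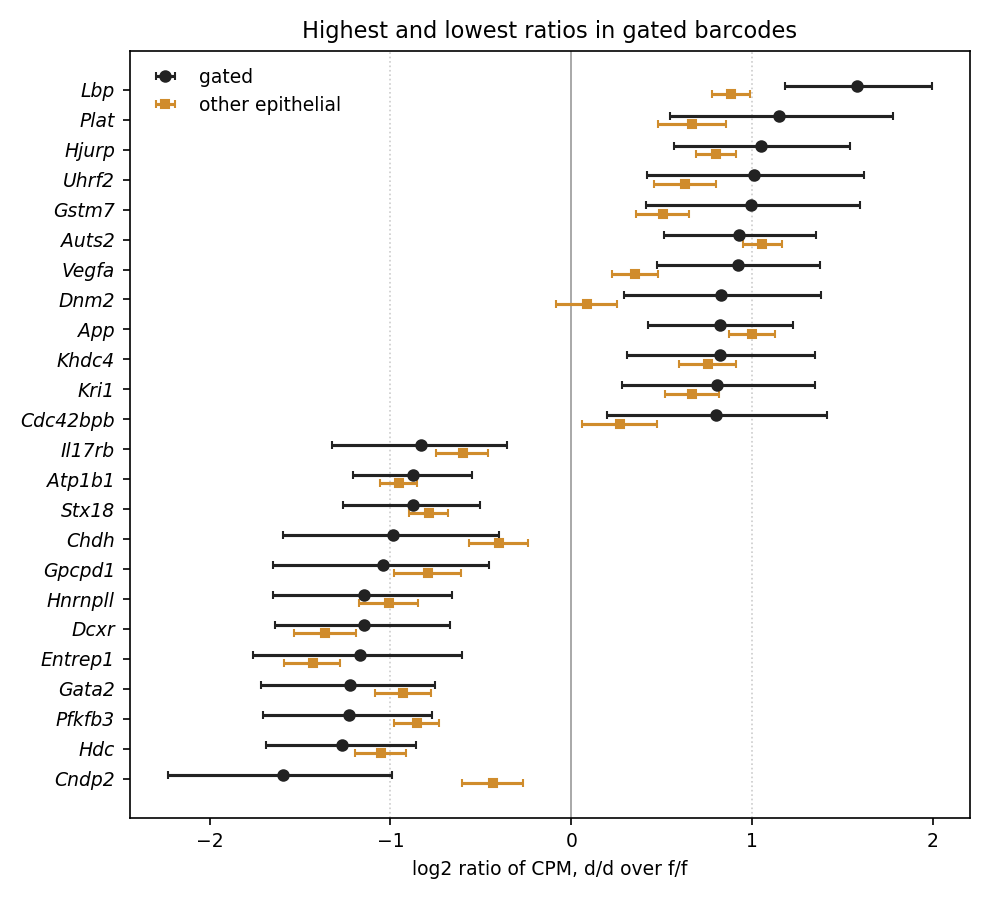
Log2 ratio of CPM, d/d over f/f, for the 12 highest and 12 lowest genes of the gated barcodes, in gated and in other epithelial barcodes, with exact 95% intervals for counting error; dotted lines mark 2-fold. Cndp2 (-1.59 against -0.43), Dnm2 (0.83 against 0.09) and Lbp (1.58 against 0.88) lie apart from their values in the other epithelium.

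Of the hormone receptors, the estrogen receptor gene Esr1 had 68 UMIs in f/f against 72 in d/d (658 and 763 CPM), a log2 ratio of 0.21 (-0.29 to 0.71) that covered no difference. The progesterone receptor gene Pgr had 52 and 27 UMIs (503 and 286 CPM), a ratio of -0.82 (-1.54 to -0.12). Pgr lay below 0 at -0.75 in the other epithelium as well. The 13 steroid receptors and cofactors summed to 3309 and 2595 CPM (-0.35, -0.59 to -0.11). Of their 7 members with at least 20 UMIs, 1 was past 2-fold lower (Gata2) and 1 past 2-fold higher, and the median was -0.53. At that lower minimum 229 (7.53%) of 3041 genes were past 2-fold higher, 212 (6.97%) past 2-fold lower, and the median was 0.00.

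Progesterone-response genes were lower as a group in d/d, though not each of them. The 17 genes summed to 4876 CPM in f/f against 3315 CPM in d/d, a log2 ratio of -0.56 (-0.76 to -0.35), near the -0.58 of the other epithelium. Of the 6 members with at least 20 UMIs, 3 were past 2-fold lower, beside 6.97% of all genes at that minimum. These were Gata2, Sgk1, a kinase that controls epithelial ion channels (61 and 14 UMIs, -1.99, -2.95 to -1.14), and Acod1, the itaconate enzyme (20 and 2 UMIs, -3.19, -6.33 to -1.15). The minimum is on the sum of both libraries, and Acod1 reached it through its f/f UMIs. Its place in this count is thus partly set by the filter. Per1 (-0.49) and Calb1 (-0.19) lay below 0 and Alox15, a lipoxygenase, above it (0.48), at a median of -0.86. Among the 3 members with 100 UMIs the median was -0.19.

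The estrogen-response list had an interval that covered 0. Its 17 genes summed to 2022 and 2319 CPM, a log2 ratio of 0.20 (-0.08 to 0.48), and the median of its 5 counted members was -0.01. Pgr was the lowest and Ccnd1, a cyclin of the G1 phase, the highest at 0.72 from 8 and 12 UMIs. Greb1, an estrogen receptor cofactor, had 1 UMI in f/f against 11 in d/d, too few to be counted.

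Proliferation genes had more RNA in the gated d/d barcodes. The gated barcodes differed in make-up between the libraries, since UMIs of the cycling set, though fewer than those of the 5 genes, were still found in 9 of the f/f (8.74%) and 36 of the d/d barcodes (37.5%), and UMIs of the Lrp2 set in 64 (62.1%) and 18 (18.8%). The part of this in any ratio of d/d to f/f was not tested. The 35 genes of the list, none of them in that set, gave 137 UMIs in f/f against 318 in d/d, or 1325 and 3368 CPM, a log2 ratio of 1.35 (1.05 to 1.65). The other epithelium, at 2252 and 4956 CPM, had a ratio of 1.14. All 7 members with at least 20 UMIs over both libraries were above 0 and 5 were past 2-fold. Of all genes, 7.53% were past 2-fold higher at that minimum. Low-count members such as Ccnb2 and Cdk1 reached the minimum through their d/d UMIs. These member counts are therefore partly set by the filter and add no support to the summed ratio. Highest were Ccnb2, a mitotic cyclin (6 and 23 UMIs, 2.07), and Cdk1, its kinase (5 and 19 UMIs, 2.06). Ube2c, Cenpf and Hells stood at 1.42, 1.32 and 1.06, Mcm7 at 0.64, and Mki67 at 0.13 from 10 UMIs in each library.

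Counted by cell, 37 of 103 gated f/f barcodes (35.9%, 26.7% to 46.0%) and 59 of 96 gated d/d barcodes (61.5%, 51.0% to 71.2%) had a proliferation UMI after thinning to 500 UMIs. The difference was 25.5 points (11.01 to 38.96). Without thinning the shares were 50.5% and 74.0%. Stromal barcodes, thinned alike, stood at 37.1% and 43.5%, and barcodes led by the Lrp2 set at 34.7% and 41.2%. The other epithelial barcodes, which include those led by the cycling set, stood at 40.1% and 74.5%. The interval of the gated f/f share covered all 3 f/f levels, so that share is not read as division. In d/d the gated share and its interval lay above those of stromal barcodes (39.6% to 47.4%). The gated share was also above that of Lrp2-led barcodes (29.4% to 53.8%) and below that of the other epithelium (71.1% to 77.7%). Its interval overlapped both of the latter, so the order among these 3 is not settled.

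Ion and water transport genes were lower in sum. The 18 genes gave 418 UMIs in f/f against 239 in d/d (4044 and 2531 CPM), a log2 ratio of -0.68 (-0.91 to -0.44), beside -0.63 in the other epithelium. Atp1b1, described above, was the most abundant member. Kcnq1, a potassium channel, went from 22 to 5 UMIs (-2.01, -3.76 to -0.57) and was the 1 of 6 members with at least 20 UMIs past 2-fold. Over all genes at that minimum 6.97% were past 2-fold lower, and 1 of so few members cannot be told from that share. Cftr, the chloride channel, went from 13 to 18 UMIs (0.60), Clcn2 stood at -0.03 and Slc4a4 at -0.11.

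Genes related to the 5 were followed as families. The 11 relatives (other Padi enzymes, phosphatases, exchange factors and Bcl2l14) summed to 1113 and 858 CPM, a log2 ratio of -0.38 (-0.80 to 0.05), and 0 of its 4 members with at least 20 UMIs were past 2-fold. Arhgef16 was lowest at -0.80 and Padi1 highest at -0.01 (21 and 19 UMIs). In the Bcl2 family, Bax, which permeabilizes mitochondria, went from 28 to 59 UMIs (271 to 625 CPM). Its ratio was 1.21 (0.53 to 1.91), beside 0.91 in the other epithelium. Pmaip1, which encodes Noxa, went from 7 to 13 UMIs (1.02, -0.41 to 2.59). Bcl2l11 was the lowest at -0.70 and the survival gene Bcl2l1 stood at -0.45, and the 16 genes summed to a ratio of 0.25 (-0.06 to 0.56). Mucins and O-glycan enzymes had 0 of 5 counted members past 2-fold, from Galnt2 at -0.61 to Gcnt3 at 0.65, and a summed ratio of -0.18 (-0.55 to 0.20). For the relatives and the mucins, a count of 0 in so few members cannot be told from the share over all genes. That share was 7.53% past 2-fold higher and 6.97% lower at a minimum of 20 UMIs.

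ErbB receptors and ligands were near the limit of detection. The 16 genes gave 68 and 48 UMIs, a log2 ratio of -0.37 (-0.94 to 0.18). Erbb2, a partner of Erbb3, was the only member with at least 20 UMIs, at 28 and 14 (-0.87, -1.91 to 0.10). Egfr had 12 and 6 UMIs.

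Signals to the stroma and cell junctions had members on both sides. The 17 signal genes summed to 1770 and 2446 CPM, a log2 ratio of 0.47 (0.18 to 0.75), with Vegfa highest. Wnt11, a luminal Wnt ligand, went the other way from 22 UMIs to 1 (-4.33, -9.70 to -1.70). In the other epithelium Wnt11 was lower in d/d as well (305 and 49.7 CPM). Wnt7a went from 17 to 28 UMIs (0.85, -0.07 to 1.81), beside 94.2 and 250 CPM in the other epithelium, and Pdgfa from 41 to 44 (0.23). The 24 junction genes summed to 3754 and 4257 CPM (0.18, -0.02 to 0.39), and 1 of the 16 members with at least 20 UMIs was past 2-fold, no more than the share over all genes at that minimum (7.53% higher and 6.97% lower). That was the tight junction claudin Cldn4 (6 and 17 UMIs, 1.63, 0.22 to 3.26), at -0.29 in the other epithelium, and Ctnnd1 was lowest at -0.62. Immediate early and heat shock genes summed to 706 and 964 CPM (0.45, -0.01 to 0.91), with Jund at 1.22 (15 and 32 UMIs) and Jun at 0.69.

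**Figure D5:**
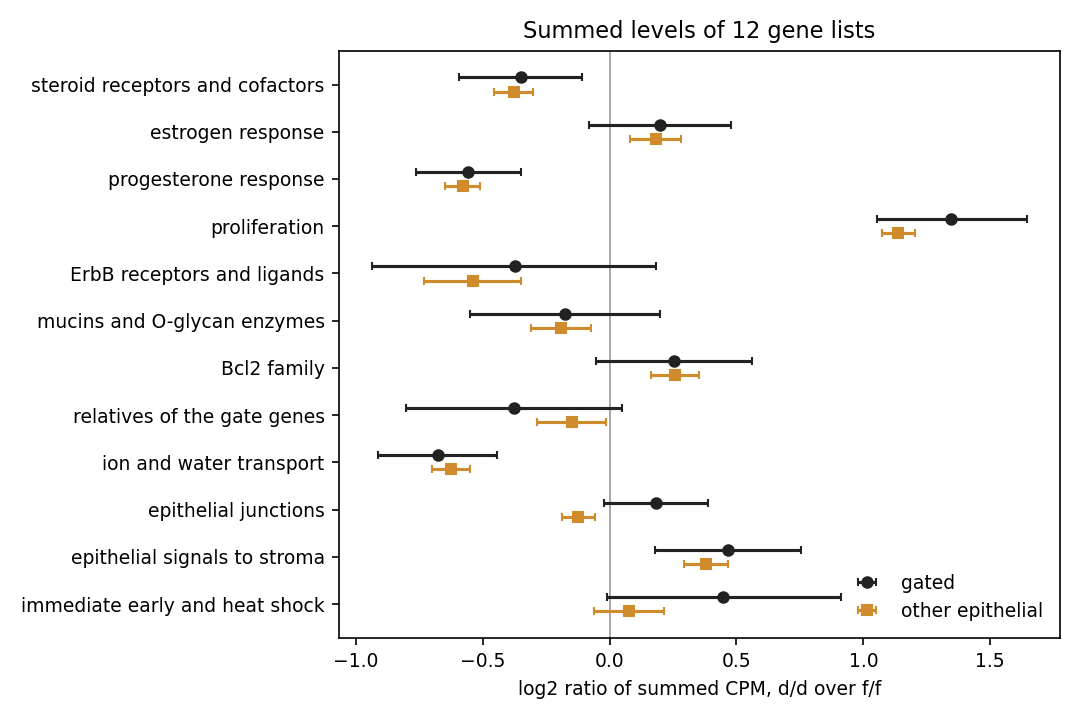
Log2 ratio of summed CPM, d/d over f/f, for 12 gene lists in gated and other epithelial barcodes, with exact 95% intervals for counting error. Proliferation genes are highest (1.35 in gated barcodes), and ion transport (-0.68) and progesterone-response genes (-0.56) are lowest, close to the other epithelium in each case.

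The luminal marker Calb1 and Lbp were compared between cells with lower and higher sums of the 5 genes. In f/f, Calb1 was at 2018 CPM (interval 1547 to 2587) in barcodes with a sum of 2 and 1666 CPM (1382 to 1990) with a sum of 3 or more, and in d/d at 1496 (1139 to 1930) and 1600 CPM (1284 to 1972). Lbp was at 618 (372 to 966) and 716 CPM (535 to 939) in f/f, and at 1902 (1496 to 2384) and 2164 CPM (1793 to 2590) in d/d. The intervals of Calb1 and of Lbp overlapped within each library. Other features stood further apart, also with overlapping intervals. Ldhb was at 32.55 (0.82 to 181) and 193 CPM (105 to 323) in f/f, and the other way at 456 and 309 CPM in d/d. The stromal markers were at 293 (134 to 556) and 592 CPM (428 to 797) in f/f, and C3 at 431 (251 to 690) and 236 CPM (126 to 404) in d/d. Barcodes just outside the gate, with a sum of 1, had Lbp at 538 and 2355 CPM, so the difference between libraries in Lbp was there as well.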

How the data were processed

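Members, gene lists and rules were chosen with earlier results of these data known. The deposited values were whole-number UMI counts per gene and barcode for 19070 genes, and per the file headers their software was Cell Ranger 9.0.0. The submitters' processing notes name the builds mm10 and GRCm39 with no role for either. The probe set and aligner settings are not given in the sources used here. CPM, summed counts divided by the group's total UMIs, were computed from these counts with Python 3.11.15, numpy 2.4.6 and scipy 1.17.1, and no pseudocount was used; a count of 0 was set to 3 counts where a ratio was needed.

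Intervals were exact (Poisson for levels, Clopper-Pearson for shares, conditional binomial for ratios) at 95%. They cover counting error only. Genes against other epithelial barcodes needed 50 UMIs in each library, and d/d against f/f needed 100 UMIs over both. A gene of low count can reach a minimum over both libraries through the library where it is higher. Called meant at least 2-fold. The 36 genes of the rule were left out of all gene counts. Named were the 12 highest and 8 lowest genes against other epithelial barcodes by the smaller of both libraries' ratios, the 12 highest and 12 lowest ratios of d/d over f/f, the highest and lowest counted member of each list with those past 2-fold, the 5 gate genes, Erbb3, Esr1 and Pgr. Some list members that this rule would name are not reported here. Thinning to 500 UMIs was drawn 1 time with a fixed seed. Scrublet in scanpy 1.11.5 called 1 doublet in each library and so did not work here; doublets stayed in, and leaving out the highest 5% of scores was an alternative. The scripts were tested on simulated data. Other alternatives were stricter or looser gates, a lower UMI minimum, other scaling and other depths.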

Additional observations from a re-analysis of the deposited data

Results flagged for a closer look

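Barcodes with over 10% mitochondrial UMIs took no part in the comparisons, yet 17 of 95 epithelial d/d barcodes of that kind passed the rule for the 5 genes (17.9%, interval 10.8% to 27.1%), against 3 of 109 in f/f (2.75%, 0.571% to 7.83%). Cndp2 was higher in gated than in other epithelial barcodes in f/f (log2 ratio 0.37, 0.06 to 0.66) and lower in d/d (-0.79, -1.38 to -0.25). Lbp was lower in gated barcodes in f/f (-0.43, -0.79 to -0.09) and higher in d/d (0.27, 0.04 to 0.49). This turn depended on the reference, since against barcodes led by the Lrp2 set Lbp was lower in both (-0.36 and -0.26), and outside the cycling set it stood at -0.53 and 0.06. Both genes had been named for their ratio of d/d to f/f in the same cells, and the difference between libraries was not tested for either, since each genotype had 1 library.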

How the results depend on the processing

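Of 435 alternative values over 40 results, 399 stayed within their limits, 36 moved and 0 changed direction. The limits were the interval of the main value, or a set fold for counts. For the median of a gene list, that interval was the one of the summed ratio of its counted members, moved onto the median. A change of direction was looked for only where that interval lay off 0, and counts and single shares cannot change sign. With the sum of 2 UMIs alone, chosen after seeing the data, the gated share was 18.5% in f/f and 23.3% in d/d (difference 4.77 points), and a sum of at least 3 gave 2.97% and 5.82% (2.86 points). At least 2 different gate genes gave 3.79% and 9.29%, and thinning to 500 UMIs gave 8.09% in d/d (difference 4.00 points). Genes higher and lower than in other epithelial barcodes numbered 33 and 118 at a minimum of 20 UMIs and 3 and 7 outside the cycling set, and 3 were higher without barcodes with shared bases. In d/d against f/f, 73 genes were higher and 104 lower with the sum alone, and 229 and 212 at a minimum of 20 UMIs. Only 2 were higher without Muc4 in the gate, with a stromal sum of 0, or without barcodes with shared bases. The proliferation share in d/d was 72.3% with the sum alone and 84.8% at 1000 UMIs, where that in f/f was 50%. Of 264 values for the 24 named genes 2 moved, App to 0.38 and Gstm7 to 0.40 with a sum of at least 3. No paired analysis was possible because each genotype had 1 library. Depth limited most genes to fewer than 20 UMIs in the gated barcodes.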
